A study of Mus musculus with 20 samples.

Results

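In splenic follicular T cells, 7 named genes of cell survival and cell death were followed: *Bcl2*, *Bcl2l1*, *Mcl1*, *Bcl2a1b* and *Bcl2a1d*, *Bcl2l11*, and *Fas*. They were chosen by name and not by their values, though with earlier results of these data known, and are 7 of the 13798 genes in the expression matrix. All 7 passed the filter on low values. Single-cell RNA was measured in 5 WT chimeras and 5 mixed 564Igi chimeras on the C57BL/6 strain, as 28192 cells, and the T cell receptor (TCR) was sequenced from the same mice in 33833 cells. WT chimeras are irradiated young adult mice rebuilt with congenic WT bone marrow and immunized 6 weeks later with NP-OVA, a haptenated protein, in alum. The study's methods also describe a booster. The 564Igi chimeras received WT marrow mixed with marrow from mice whose B cells carry a knocked-in heavy and light chain that together recognize self ribonuclear complexes, and were not immunized. Both kinds of chimera were taken 10 weeks after irradiation per the labels, so the conditions differ in marrow and in immunization together, and these cannot be told apart. Labelled sex was 2 females and 3 males in WT and 3 females and 2 males in 564Igi chimeras. Sorted cells were CD4+CXCR5+PD1+, a gate that holds T follicular helper (TFH) cells, which help B cells in germinal centers, and T follicular regulatory (TFR) cells, which carry FOXP3 and restrain that help. The study's methods add CD3+, CD45.2+ and CD45.1- to this gate, so cells of the other congenic type were left out.

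The BCL2 family sets whether the outer mitochondrial membrane stays closed. BCL2, BCL-XL (from *Bcl2l1*), MCL1 and A1 (from the *Bcl2a1* genes) hold the pore formers BAX and BAK in check, while BH3-only proteins such as BIM (from *Bcl2l11*) bind those guards and set BAX and BAK free. In lymphocytes *Bcl2* is sustained by cytokines such as IL-7, MCL1 is a short-lived protein, and A1 is an NF-kB target that antigen receptor signals induce. FAS is the cell surface receptor of the other route: its ligand FASL recruits FADD and caspase-8, and cFLIP (from *Cflar*) blocks that step. Both routes limit T cell responses, and germinal center lymphocytes are known for carrying FAS.

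On GRCm38 (GENCODE annotation), *Bcl2* lies at chr1:106538178-106714274 on the minus strand, *Bcl2l1* at chr2:152780668-152831728 on the minus strand and *Bcl2l11* at chr2:128126038-128162547 on the plus strand. *Mcl1* lies at chr3:95658788-95663176 and *Fas* at chr19:34290666-34327772, both on the plus strand. *Bcl2a1b* (chr9:89199209-89207827, plus strand) and *Bcl2a1d* (chr9:88723285-88731914, minus strand) are copies of 1 gene that flank a further copy, *Bcl2a1a* (chr9:88956900-88962419, plus strand). The first 180 coding bases of the 3 copies are shown to make plain how close the copies are, with the 7 positions at which any copy differs in capitals:
Bcl2a1b: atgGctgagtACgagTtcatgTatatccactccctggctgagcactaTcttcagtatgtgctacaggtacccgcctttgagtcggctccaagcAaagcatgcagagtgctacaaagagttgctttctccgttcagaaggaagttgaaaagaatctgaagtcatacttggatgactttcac
Bcl2a1d: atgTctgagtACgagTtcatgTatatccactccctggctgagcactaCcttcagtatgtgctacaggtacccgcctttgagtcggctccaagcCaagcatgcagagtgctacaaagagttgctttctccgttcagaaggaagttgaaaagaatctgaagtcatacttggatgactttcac
Bcl2a1a: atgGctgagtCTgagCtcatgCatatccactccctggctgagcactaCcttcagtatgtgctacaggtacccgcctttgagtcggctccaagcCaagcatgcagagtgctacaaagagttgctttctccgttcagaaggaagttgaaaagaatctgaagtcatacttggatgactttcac

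Over 516 coding bases, *Bcl2a1b* and *Bcl2a1d* differ at 6, of which 3 lie in the stretch above, and are 98.84% identical. A stretch as long as the 98-base RNA read occurs unchanged in another copy at 231 of 720 places in the *Bcl2a1b* transcript (32.1%) and at 430 of 766 places in *Bcl2a1d* (56.1%). Reads from those places cannot be assigned to 1 gene, so the values of both genes are uncertain as measures of either copy alone.

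RefSeq promoter windows, from 250 bases before to 50 after each start on GRCm38.p6, were found for all 7 genes. Both *Bcl2a1* members (TGAATCA) and *Fas* (TGAGTCA) hold the letters TGANTCA, where N is any base. This motif reads the same on both strands and is held by 2565 of 32851 promoter windows (7.81%), where a gene can have several. The motif was chosen after sequences and levels had been seen. It is given with 30 bases on each side, in capitals, as the duplicated upstream sequence of the copies and the separate match of *Fas*:
Bcl2a1b (chr9:89199079-89199145, plus strand): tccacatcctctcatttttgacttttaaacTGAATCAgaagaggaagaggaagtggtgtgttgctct
Bcl2a1d (chr9:88731928-88731994, minus strand): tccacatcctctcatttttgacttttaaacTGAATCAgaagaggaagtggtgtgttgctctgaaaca
Fas (chr19:34290418-34290484, plus strand): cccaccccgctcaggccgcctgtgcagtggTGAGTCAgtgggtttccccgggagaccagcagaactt

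The stretches of *Bcl2a1b* and *Bcl2a1d* share the motif and the bases before it, as the coding sequences do. No binding was measured, so the matches describe letters only.

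Depth ranged from 3424280 to 15241983 UMIs (unique molecular identifiers, 1 per captured RNA molecule) over 1121 to 4030 cells per mouse, with 564Igi mouse 24 the shallowest. *Cd3e* was present in 99.4% of the cells of WT mice and 99.5% of those of 564Igi mice, *Cd4* in 66.6% and 68.0% and *Pdcd1* in 73.5% and 77.7%. The B cell genes *Cd79a* and *Ms4a1* were found in at most 0.410% of any mouse's cells, and *Lyz2* in at most 0.372%. Other genes of the same marker lists were found more often. *Cd79b* was found in up to 5.24%, *Cd22* in up to 6.12%, *Fcmr* in up to 3.72% and *Pax5* in up to 1.45% of a mouse's cells. *Cd8b1* was found in up to 5.42% and *Cst3* in 37.4% to 51.6%. The authors' 6 clusters held 11953 activated TFH cells, 11650 TFR cells, 2803 *Sostdc1* TFH cells, 725 central memory, 682 effector and 379 interferon stimulated TFH cells. In the TFR cluster the summed level of *Foxp3*, *Ikzf2* and *Il2ra* was 2.99 against at most 1.86 in any other cluster. The cell barcodes of 988 cells (3.5%) also occurred in another library, which were kept, and no doublet caller was run here. No cell type that should lack the 7 genes was captured, so the share of cells that would be found positive through free RNA could not be given. Mice 34 and 36 had the highest mean heat shock scores (0.11 and 0.081, against at most 0.047 in the other mice), and the results by clone size are also given without them.

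Each gene's level was its mean over the cells of a mouse of log2(corrected UMI + 1), with the mouse as the replicate, and a gene was found in a cell that held at least 1 corrected UMI. Among the guards of the mitochondrion, *Bcl2* stood at 0.40, 0.41, 0.37, 0.43 and 0.30 in WT mice 11, 12, 14, 23 and 36. In 564Igi mice 13, 17, 21, 24 and 34 it stood at 0.51, 0.32, 0.40, 0.40 and 0.32. Mouse 13 was above every WT mouse and the other 564Igi mice lay among them. *Bcl2* was found in 30.7% ± 4.07 (SD, n = 10) of cells, and with 3 or more UMIs in 6.18% of the cells of mouse 13.

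*Bcl2l1* was found in fewer cells, 5.49% ± 1.18 (SD, n = 10). Its level was 0.074, 0.066, 0.064, 0.065 and 0.054 in the WT mice and 0.058, 0.073, 0.048, 0.046 and 0.035 in the 564Igi mice, in the same order of mice. Mice 21, 24 and 34 lay below every WT mouse and mice 13 and 17 among them. *Mcl1*, found in 29.1% ± 2.94 of cells, had levels of 0.34, 0.28, 0.31, 0.35 and 0.30 in WT and 0.39, 0.36, 0.31, 0.29 and 0.32 in 564Igi mice, with mice 13 and 17 above all WT mice.

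Of the A1 copies, *Bcl2a1b*, found in 31.8% ± 3.42 of cells, ranged from 0.32 to 0.44 in WT mice and from 0.31 to 0.46 in 564Igi mice, with mouse 36 highest of WT and mouse 34 highest of all. *Bcl2a1d*, found in 20.3% ± 1.22, ranged from 0.20 to 0.25 in WT and from 0.21 to 0.23 in 564Igi mice. The ranges of both copies overlapped almost fully between conditions.

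The BH3-only gene *Bcl2l11* was found in 4.35% ± 0.853 of cells, at levels of 0.034 to 0.062 in WT and 0.037 to 0.062 in 564Igi mice. *Fas* was found in 22.6% ± 3.29 of cells. Its level was 0.21, 0.28, 0.28, 0.23 and 0.24 in the WT mice and 0.29, 0.26, 0.27, 0.18 and 0.29 in the 564Igi mice. Mouse 24, the shallowest library, lay below all other mice, and mice 13 and 34 lay above every WT mouse.

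**Figure D1:**
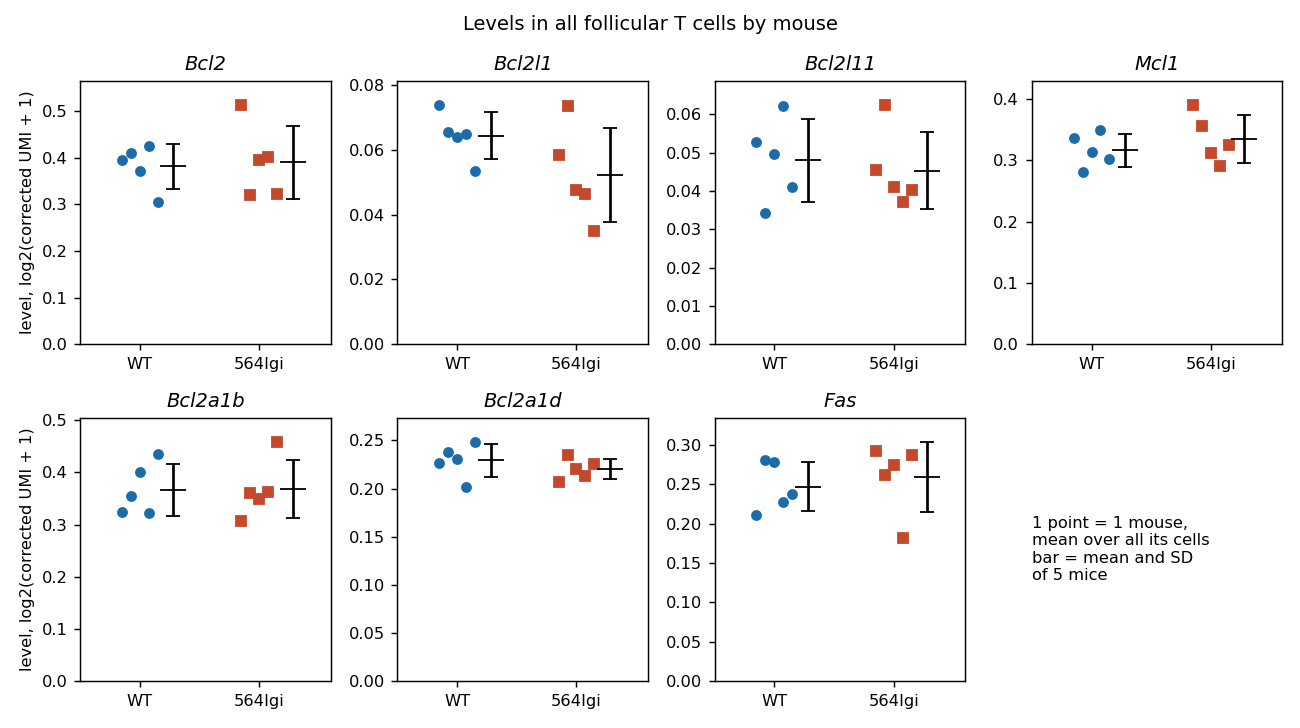
Level of each of the 7 genes, as mean log2(corrected UMI + 1) over all follicular T cells of a mouse (y axis, from 0), in WT and 564Igi chimeras (x axis). Each point is 1 mouse and the bar gives the mean and SD of 5 mice. The conditions overlap for all 7 genes, with mouse 13 highest for Bcl2 (0.51) and mouse 24 lowest for Fas (0.18).

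Whether autoimmune and immunized chimeras differ in these genes was tested over all follicular T cells with limma, with p-values adjusted over 9959 genes. None of the 7 genes was called at an adjusted p below 0.01 and a log2 difference above 0.2, against 0.01% of all genes tested, and none reached an unadjusted p below 0.05, which 318 genes (3.19%) did. The WT means of *Bcl2l1* and *Bcl2l11* were themselves below 0.2, so a fall in either could not reach that limit. With an adjusted p below 0.05 and no such limit, none of the 7 genes was called either. *Bcl2* averaged 0.38 ± 0.048 in WT and 0.39 ± 0.079 in 564Igi mice (SD, n = 5 each), a difference of 0.0086 with a standard error of 0.032. *Fas* averaged 0.25 ± 0.032 and 0.26 ± 0.045. The lowest p belonged to *Bcl2l1*, at 0.064 ± 0.0072 in WT and 0.052 ± 0.014 in 564Igi mice, a difference of -0.012 with a standard error of 0.0072 (exact permutation p = 0.151, two-sided, the smallest possible being 0.00794). All 7 adjusted p-values were 0.99966. The median difference over the 7 genes was 0.00071, beside -0.0018 over all genes. The values of each condition were normalized separately by the authors, which bears on every difference between conditions.

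Within clusters no member was called either. The WT means of *Bcl2l1* and *Bcl2l11* were below 0.2 in every cluster, so a fall in them could not reach the limit. The same held for *Bcl2a1b*, *Bcl2a1d* and *Fas* in central memory cells. In the activated cluster 0.0101% of genes were called and *Bcl2l1* was again the member with the lowest p, at 0.052 ± 0.0093 in WT and 0.038 ± 0.016 in 564Igi mice, with 4 of 5 564Igi mice below every WT mouse (exact permutation p = 0.119, limma adjusted p = 0.99966). In the TFR cluster, where 0.02% of genes were called, *Mcl1* averaged 0.34 ± 0.025 and 0.37 ± 0.041, with 2 of 5 564Igi mice above every WT mouse (exact permutation p = 0.159). In the *Sostdc1* cluster, where 0.0202% of genes were called, 2 of the 7 genes had an unadjusted limma p below 0.05, as did 4.6% of all genes. *Bcl2a1d* averaged 0.29 ± 0.044 in WT and 0.23 ± 0.023 in 564Igi mice, with 4 of 5 564Igi mice below every WT mouse (exact permutation p = 0.0317, limma adjusted p = 0.99973). *Bcl2l11* averaged 0.049 ± 0.011 and 0.030 ± 0.012 there (exact permutation p = 0.0397), with 3 of 5 564Igi mice below every WT mouse. Neither passed the adjustment over 9885 genes.

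The small clusters gave wider spreads. The central memory cluster, with 0.00% of genes called, rested on 5 WT and 3 564Igi mice with at least 20 cells, and *Bcl2* averaged 0.51 ± 0.11 and 0.40 ± 0.21 there. In the effector cluster, with 0.0104% called, *Bcl2* averaged 0.41 ± 0.14 and 0.32 ± 0.11. In the interferon stimulated cluster, with 0.0106% called, 4 mice of each condition gave *Mcl1* at 0.36 ± 0.050 and 0.42 ± 0.029. No member had an unadjusted limma p below 0.05 in these 3 clusters, while 784, 503 and 396 genes did.

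Levels across clusters are described without a test, since the clusters had been made from the same expression values. *Bcl2* was highest in *Sostdc1* TFH cells (0.50 ± 0.088, SD, n = 10 mice) and central memory cells (0.47 ± 0.15, n = 8). It followed at 0.41 ± 0.19 in interferon stimulated (n = 8), 0.40 ± 0.070 in activated and 0.36 ± 0.13 in effector cells, and was lowest in TFR cells at 0.34 ± 0.060. No neighbours in that order differed by more than the SD of the difference within mice. *Bcl2* was found in 39.8% of *Sostdc1* cells and 26.5% of TFR cells.

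*Bcl2l1* had another order, with TFR cells first at 0.079 ± 0.013 and *Sostdc1* cells last at 0.035 ± 0.011. *Mcl1* was highest in central memory cells (0.41 ± 0.075) and lowest in *Sostdc1* cells (0.28 ± 0.044), with TFR cells at 0.35 ± 0.037 and activated cells at 0.30 ± 0.032. For both genes no neighbours in the order differed by more than the SD of their difference.

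The A1 copies and *Fas* were lowest in central memory cells. *Bcl2a1b* was highest in TFR cells (0.44 ± 0.060), above *Sostdc1* cells (0.36 ± 0.058) in 8 of 10 mice, and stood at 0.13 ± 0.041 in central memory cells, below effector cells in 8 of 8 mice. Both steps were larger than the SD of the difference. *Bcl2a1d* lay between 0.21 and 0.27 in 5 clusters and at 0.047 ± 0.035 in central memory cells, below activated cells in 8 of 8 mice. *Fas* lay at 0.27 ± 0.040 in TFR cells and at 0.16 ± 0.082 in central memory cells, and none of its neighbours differed by more than their SD.

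*Bcl2l11* had the opposite extreme, with central memory cells at 0.12 ± 0.024 and all other clusters between 0.040 and 0.068. It was found in 10.8% of central memory cells and in 3.59% to 5.86% of the others, and central memory exceeded effector cells in 7 of 8 mice, by less than the SD of the difference. The central memory cluster therefore held the highest *Bcl2l11* and *Mcl1* and the lowest *Bcl2a1b*, *Bcl2a1d* and *Fas* means. Its markers moved with this: the summed level of *Cxcr5*, *Pdcd1*, *Icos* and *Bcl6* was 1.63 there against 3.28 over all cells and that of *Cd3e* and *Cd4* was 2.77 against 3.95. The part of these markers in the members' levels was not tested.

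**Figure D2:**
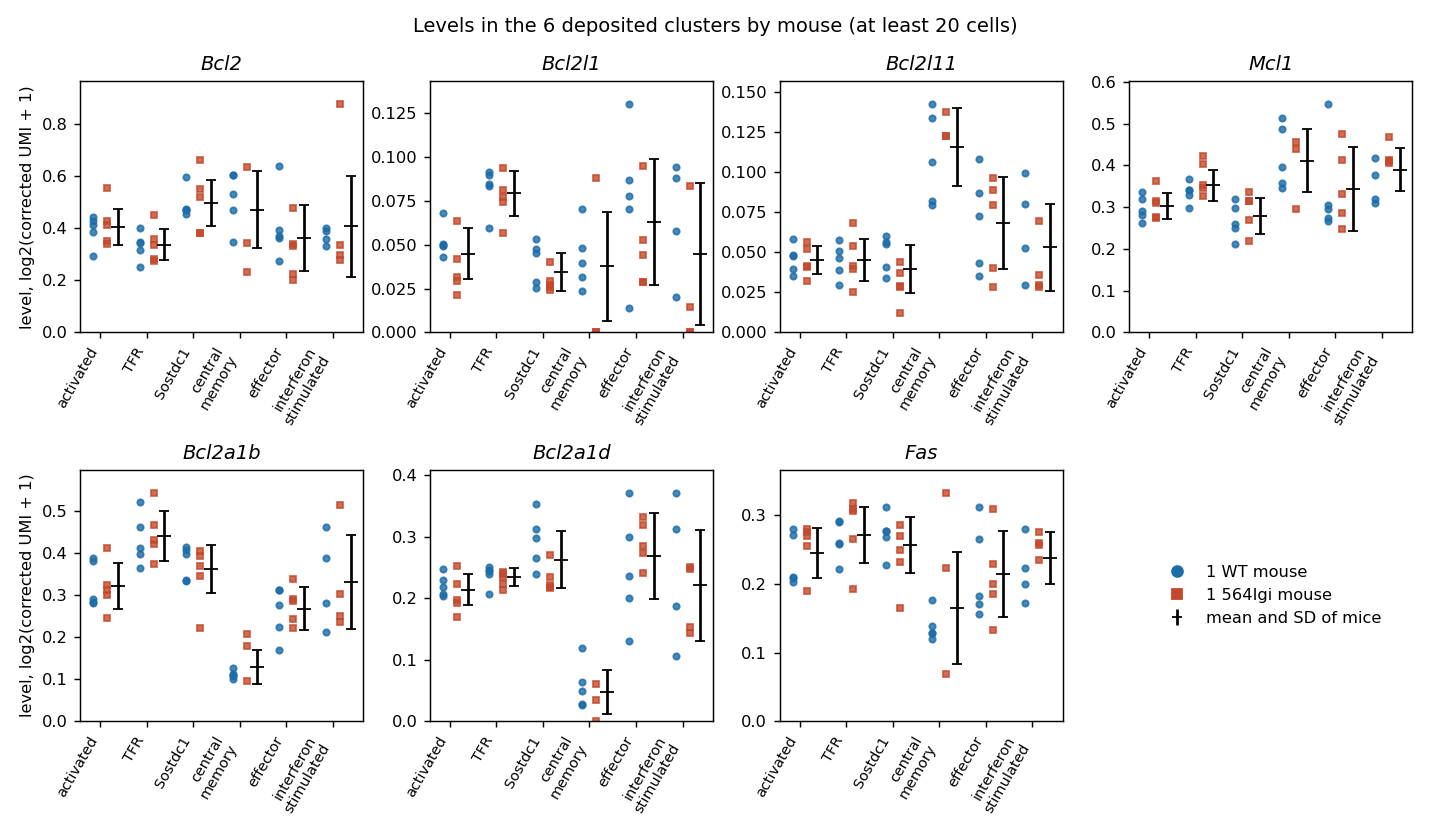
Level of each gene, as mean log2(corrected UMI + 1) per mouse (y axis, from 0), in the 6 deposited clusters (x axis), for mice with at least 20 cells of the cluster. Each point is 1 WT or 564Igi mouse, and the bars give the mean and SD over mice. Central memory cells have the lowest Bcl2a1b (0.13) and Bcl2a1d (0.047) and the highest Bcl2l11 (0.12).

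TFR and activated TFH cells of the same mouse could be set side by side in all 10 mice. *Bcl2* was lower in TFR cells in 10 of 10 mice, with a TFR minus activated difference of -0.060 ± 0.040 in WT and -0.077 ± 0.017 in 564Igi mice. *Bcl2a1b* was higher in TFR cells in 10 of 10 mice, by 0.11 ± 0.028 and 0.13 ± 0.017. *Bcl2l1*, *Mcl1* and *Fas* were also higher in TFR cells in 10 of 10 mice, *Bcl2a1d* in 7 and *Bcl2l11* in 3. The summed level of 7 B cell markers was also higher in TFR cells, 0.20 (0.14 to 0.24 over mice) against 0.097 (0.069 to 0.12) in activated cells, with *Cd79a* and *Ms4a1* near 0. That of 4 myeloid markers was 0.64 (0.48 to 0.74) against 0.49 (0.40 to 0.57), while that of 3 germinal center B cell markers was lower in TFR cells, 0.15 (0.092 to 0.19) against 0.26 (0.13 to 0.42). The part of these markers in the members' differences was not tested. Whether this difference changed with the condition was tested over mice for the 7 genes. The *Mcl1* difference was 0.038 ± 0.014 in WT and 0.063 ± 0.017 in 564Igi mice (exact permutation p = 0.0397), with a limma p adjusted over all genes of 0.715, and it did not pass 0.05 when adjusted for the 7 tests. For the other 6 genes the exact permutation p lay between 0.198 and 0.794.

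Clone size was taken from the TCR libraries, as the number of cells of a mouse with the same pair of CDR3 sequences, the part of each chain that meets the antigen. The 33833 TCR cells formed 15635 clones, of which 12003 were singletons (1 cell) and 1088 had 5 or more cells. RNA and TCR came together in 21405 cells. Cells of clones of 5 or more, called expanded below, were compared with singleton cells of the same cluster and mouse. In activated TFH cells this set 4877 cells of 801 expanded clones against 2416 singleton cells in 10 mice.

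*Bcl2* was higher in the expanded cells of the activated cluster. It stood at 0.50, 0.42, 0.37, 0.50 and 0.39 in the expanded cells of WT mice 11, 12, 14, 23 and 36, beside 0.33, 0.41, 0.41, 0.33 and 0.24 in their singletons. In 564Igi mice 13, 17, 21, 24 and 34 it stood at 0.61, 0.38, 0.40, 0.48 and 0.37 in expanded cells, beside 0.46, 0.34, 0.42, 0.38 and 0.30 in singletons. Expanded cells were higher in 8 of 10 mice and lower in mice 14 and 21.

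The mean rose from 0.36 ± 0.067 to 0.44 ± 0.079 (SD, n = 10), by 0.080 with a standard error of 0.018 (limma adjusted p = 0.00444, exact sign-flip permutation p = 0.0176, the smallest possible being 0.00195). *Bcl2* was found in 29.9% ± 4.73 of singleton and 34.9% ± 4.94 of expanded cells. It was the only member called, 1 of 7, where 2.05% of all genes were called higher and 6.67% lower in expanded cells, and 4 of 7 members had an unadjusted p below 0.05 beside 23.5% of all genes. Expanded and singleton cells of the activated cluster also differed in other measures. The median raw UMIs per cell were 3513 in expanded and 3921 in singleton cells, lower in 8 of 10 mice, and the heat shock score was higher in expanded cells in 9 of 10 mice. With that score difference as a covariate the *Bcl2* difference was 0.022 (limma adjusted p = 0.832), and in cells of 2500 to 4500 UMIs it was 0.070 (adjusted p = 0.0999). With 1 value per clone it was 0.035 (adjusted p = 0.42), and without mice 34 and 36 it was 0.072 (adjusted p = 0.0406).

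Across clone sizes the *Bcl2* mean was highest in the largest clones, which is described without a test. In activated cells its level was 0.36 ± 0.067 in singletons, 0.38 ± 0.077 in clones of 2 to 4, 0.38 ± 0.11 in clones of 5 to 10 and 0.46 ± 0.075 in clones of over 10 cells. Single large clones varied widely: among 39 clones with at least 20 activated cells, the clone mean of *Bcl2* ran from 0.095 to 0.81, with a median of 0.45. The largest clone of a mouse held 11.5% ± 5.23 of its expanded activated cells (4.31% to 20.3%).

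*Mcl1* had the other sign. It averaged 0.33 ± 0.038 in singleton and 0.30 ± 0.032 in expanded activated cells, was lower in expanded cells in 9 of 10 mice and had a limma adjusted p of 0.0774 (difference -0.034, standard error 0.012, exact sign-flip permutation p = 0.00586). In cells of 2500 to 4500 UMIs its difference was 0.0062, of the other sign. *Bcl2a1b* averaged 0.31 ± 0.047 and 0.35 ± 0.083 (adjusted p = 0.0906) and *Bcl2a1d* 0.20 ± 0.050 and 0.24 ± 0.050 (adjusted p = 0.145), each missing the threshold. *Fas* averaged 0.24 ± 0.052 and 0.26 ± 0.041 (adjusted p = 0.238). *Bcl2l1* and *Bcl2l11* differed by -0.0019 and -0.0046, within their standard errors of 0.0053 and 0.0052.

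**Figure D3:**
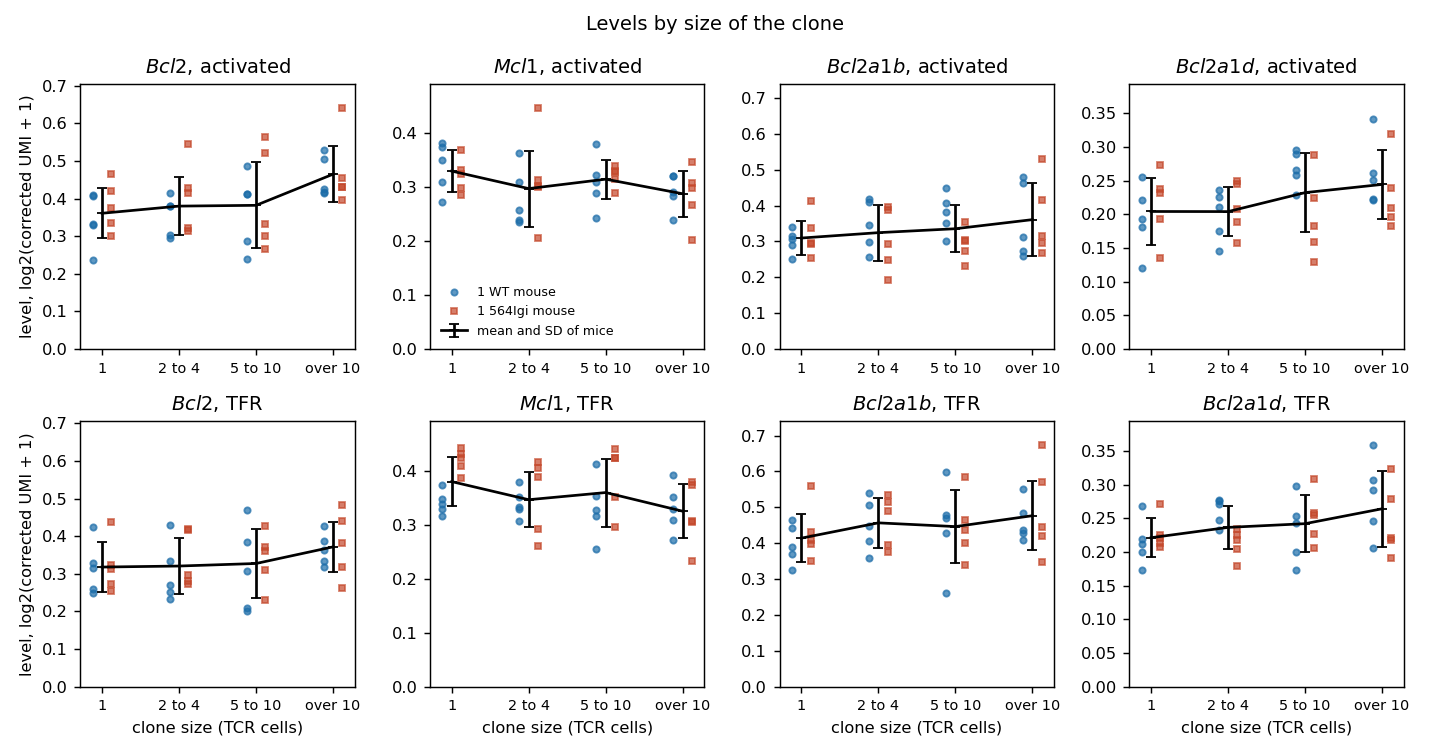
Levels of Bcl2, Mcl1, Bcl2a1b and Bcl2a1d, as mean log2(corrected UMI + 1) per mouse (y axis, from 0), by the size of the clone in TCR cells (x axis), in the activated (top) and TFR (bottom) clusters. Points are mice, and the line and bars give the mean and SD of 10 mice. Bcl2 in activated cells goes from 0.36 in singletons to 0.46 in clones of over 10 cells, and Mcl1 from 0.33 to 0.29.

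In the TFR cluster 3953 cells of 664 expanded clones were set against 2972 singleton cells in 10 mice. None of the 7 genes was called, where 0.852% of all genes were called higher and 2.35% lower, while 4 of 7 had an unadjusted limma p below 0.05, as did 19.2% of all genes. *Mcl1* was lower in expanded TFR cells in 9 of 10 mice, at 0.34 ± 0.040 against 0.38 ± 0.046 (adjusted p = 0.0925). *Bcl2a1b* averaged 0.46 ± 0.085 and 0.41 ± 0.067 (adjusted p = 0.0809), *Bcl2a1d* 0.26 ± 0.035 and 0.22 ± 0.029 (adjusted p = 0.0949) and *Bcl2* 0.35 ± 0.048 and 0.32 ± 0.067 (adjusted p = 0.146), each higher in 8 of 10 mice. With 1 value per clone *Bcl2a1d* differed by 0.083 and was called (adjusted p = 0.000977). That setting gave each clone equal weight, and 260 of the 664 clones did not have most of their RNA cells in the TFR cluster, as described below. The TFR-cluster cells of these 260 clones had *Bcl2a1d* at 0.34 (9 mice). Their part in the call was not tested. Leaving out 564Igi mouse 13 brought *Bcl2a1b* past the threshold (difference 0.063, adjusted p = 0.0270), and leaving out WT mouse 14 did so for *Mcl1* (-0.048, adjusted p = 0.0420). Over 21 alternatives, not all on the same scale, the *Mcl1* difference ranged from -0.13 to -0.0132. Its limma adjusted p ranged from 0.0420 to 0.871. *Fas* differed by 0.0095 with a standard error of 0.014.

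Expanded TFR cells also had lower median raw UMIs than singletons (3414 against 3633, lower in 9 of 10 mice). Without mice 34 and 36 no member was called in TFR cells, with *Bcl2a1d* at 0.043 (adjusted p = 0.0851). The summed level of *Cxcr5*, *Pdcd1*, *Icos* and *Bcl6* was higher in expanded cells of both clusters, at 3.56 (2.77 to 3.99 over mice) against 2.90 (2.11 to 3.60) in activated and 3.55 (3.20 to 3.89) against 3.17 (2.64 to 3.63) in TFR cells. Its part in the members' differences was not tested.

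Whether the clone size difference changed with the condition was tested for 7 genes in both clusters, 14 tests in all. *Mcl1* in TFR cells differed by -0.011 in WT and -0.069 in 564Igi mice (exact permutation p = 0.0159), which did not pass 0.05 when adjusted for the 14 tests. The 5 WT differences were -0.025, -0.048, 0.032, -0.0042 and -0.010, and the 5 in 564Igi mice were -0.026, -0.058, -0.087, -0.084 and -0.087. Mice 17, 21, 24 and 34 fell by more than every WT mouse. Singleton TFR cells had *Mcl1* at 0.32 to 0.37 in WT and 0.39 to 0.44 in 564Igi mice, so the condition ranges of the singletons did not overlap, while those of the expanded cells did. That split was looked at after the values were seen and was not tested. For the other 13 tests the exact permutation p was at least 0.111.

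In the *Sostdc1* cluster 7 mice had at least 20 cells of each kind, with 1171 expanded and 340 singleton cells. *Bcl2* averaged 0.52 ± 0.11 in expanded and 0.42 ± 0.12 in singleton cells and was higher in 6 of 7 mice (difference 0.11, standard error 0.035). No member was called, where 0.0313% of genes were, and the *Bcl2* adjusted p was 0.575, its unadjusted limma p of 0.00276 being the only one of the 7 below 0.05.

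**Figure D4:**
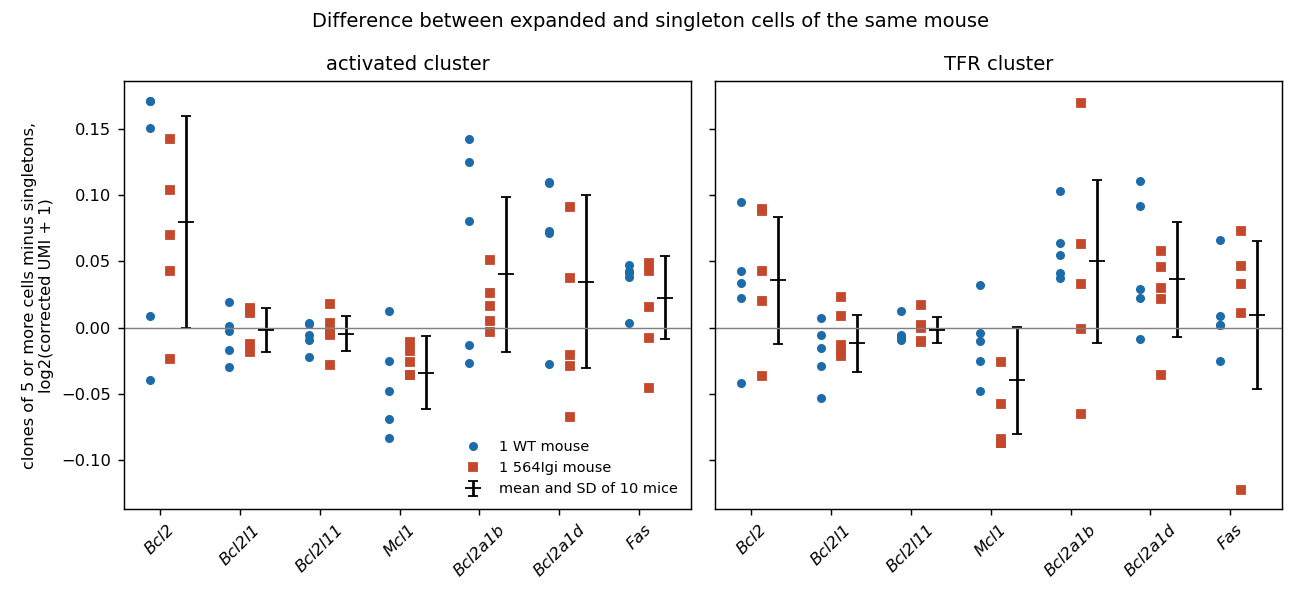
Difference in level between cells of clones of 5 or more and singletons of the same mouse, in log2(corrected UMI + 1) (y axis), for the 7 genes (x axis) in the activated and TFR clusters. Points are mice, with the mean and SD of 10 mice, and the grey line marks no difference. Bcl2 lies above 0 in 8 of 10 mice and Mcl1 below 0 in 9 of 10 mice in both clusters.

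Clones can span clusters, and the expanded TFR cells were split after their values had been seen by whether most RNA cells of the clone lay in the TFR cluster. The split uses cluster names that were made from expression, so its values are a description. The TFR cluster held 520 cells, of 260 expanded clones, whose clone did not have most of its RNA cells there. In the 9 mice with at least 20 such cells, *Bcl2* averaged 0.74 ± 0.27 and was found in 48.7% of them. In the 3433 cells of 404 clones that were mostly TFR it averaged 0.29 ± 0.045 and was found in 23.8%, and in singletons it averaged 0.32 ± 0.067. The cells of clones that were not mostly TFR were above those of mostly TFR clones in 9 of 9 mice.

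These cells also carried little *Foxp3*, the regulatory lineage gene, at 0.24 ± 0.17 and in 16% of cells, against 0.92 ± 0.11 and 59.2% in mostly TFR clones and 0.92 ± 0.097 in singletons. Of the other members, *Bcl2a1d* stood at 0.34 ± 0.065, beside 0.24 ± 0.036 in mostly TFR clones and 0.22 ± 0.029 in singletons. *Bcl2a1b* stood at 0.51 ± 0.10, beside 0.46 ± 0.084 and 0.41 ± 0.067. Set against mostly TFR clones within mice, *Bcl2a1d* differed by more than the SD of the difference (0.11 ± 0.075), and *Bcl2a1b*, *Mcl1*, *Bcl2l1*, *Bcl2l11* and *Fas* by less. Activated cells of expanded clones not mostly TFR had *Bcl2* at 0.45 ± 0.080. When expanded clones were restricted to those with most of their cells in the TFR cluster, the TFR clone size difference of *Bcl2* was -0.030 (limma adjusted p = 0.205) in place of 0.036, and with 1 value per clone over all expanded clones it was 0.16 (adjusted p = 1.57e-05).

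**Figure D5:**
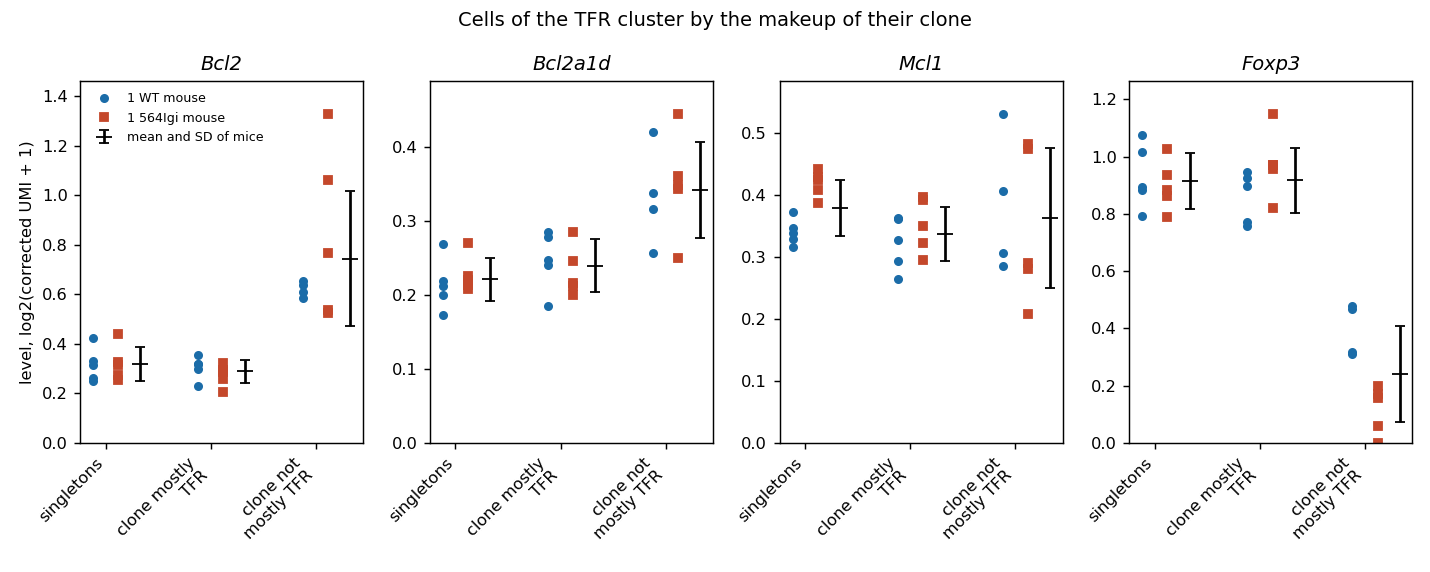
Levels, as mean log2(corrected UMI + 1) per mouse (y axis, from 0), in cells of the TFR cluster grouped by their clone (x axis). The groups are singletons, expanded clones with most of their cells in the TFR cluster, and all other expanded clones. Points are mice with at least 20 such cells, with the mean and SD. Bcl2 is 0.74 in the last group and 0.29 in the middle one, and Foxp3 is 0.24 and 0.92.

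Of a list of 38 further genes of the BCL2 family and the death receptor pathway, 35 were in the matrix and 31 were tested over all cells. None was called between conditions, beside 0.01% of all genes, and none had an unadjusted limma p below 0.05. The pore formers *Bax* and *Bak1* were found in 49.9% and 22.1% of cells, at 0.59 ± 0.014 and 0.22 ± 0.037 in WT and 0.63 ± 0.039 and 0.25 ± 0.035 in 564Igi mice. *Fasl*, which encodes the ligand of FAS, was found in 31.8% ± 8.93 of effector cells and 1.98% ± 0.941 of TFR cells. *Cflar*, the cFLIP gene, was found in 26.6% of cells and was highest in interferon stimulated cells (0.38 ± 0.10).

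With clone size, 2 of 31 listed genes were called in the activated cluster, 1 higher and 1 lower in expanded cells, where 2.05% of all genes were called higher and 6.67% lower. *Pmaip1*, which encodes the BH3-only protein NOXA, rose from 0.042 ± 0.012 to 0.063 ± 0.018 in expanded cells, higher in 9 of 10 mice (adjusted p = 0.0220). Without mouse 12, 13 or 17 in turn its adjusted p was 0.0554, 0.0590 and 0.0515. Its call was lost under 12 of 21 alternatives in all, with an adjusted p of 0.194 for 1 value per clone, 0.118 in cells of 2500 to 4500 UMIs and 0.383 with the heat shock covariate. *Cflar* fell from 0.33 ± 0.037 to 0.27 ± 0.042, lower in 9 of 10 mice (adjusted p = 0.00539), and by 0.025 in cells of 2500 to 4500 UMIs (adjusted p = 0.606). With the heat shock covariate its adjusted p was 0.494. *Bax*, *Bak1* and *Fasl* differed by 0.019, -0.014 and -0.016 and were not called. The median difference over the 31 listed genes was -0.0081, beside -0.0059 over all genes.

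In the TFR cluster 3 of 32 listed genes were called, 1 higher and 2 lower in expanded cells, where 0.852% of all genes were called higher and 2.35% lower. *Fasl* fell from 0.028 ± 0.011 to 0.015 ± 0.011 in expanded cells, lower in 10 of 10 mice (adjusted p = 0.0205). *Tnfrsf1b*, the gene of TNF receptor 2, rose from 0.46 ± 0.089 to 0.53 ± 0.095, in 9 of 10 mice (adjusted p = 0.0249). *Casp9*, the apoptosome caspase, fell from 0.028 ± 0.013 to 0.014 ± 0.010, lower in 9 of 10 mice (adjusted p = 0.0284). Each call was lost under several alternatives. With 1 value per clone *Tnfrsf1b* differed by 0.00053 (adjusted p = 0.994), *Fasl* by 0.00095 (adjusted p = 0.963) and *Casp9* by -0.014 (adjusted p = 0.109). Leaving out mouse 11, 13 or 36 gave *Fasl* an adjusted p of 0.0664, 0.0600 and 0.0581, leaving out mouse 12, 13, 14, 17, 21 or 23 gave *Tnfrsf1b* 0.0512 to 0.0804, and leaving out mouse 11, 12, 13, 17, 21 or 36 gave *Casp9* 0.0535 to 0.0935. *Bax*, *Bak1* and *Cflar* differed by 0.018, -0.0019 and -0.027 and were not called.

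The pattern of each member over 56 means of a mouse and cluster was set beside that of every other gene, by Pearson's r. These points share libraries and mice and are given as a description. *Bcl2l11* was most like *Rasgef1a* (0.82) and *Irf8* (0.81). *Bcl2a1b* was most like *Cdk2ap2* (0.81), *Izumo1r* (0.79) and *Itm2c* (0.79), and *Bcl2a1d* like *Laptm5* (0.79), *Cd3g* (0.77) and *Cd52* (0.75). *Fas* was most like *Gde1* (0.78), *Txndc17* (0.68) and *Cox6b1* (0.68). *Bcl2* was most like *Wdr36* (0.69), *Glud1* (0.65) and *Utrn* (0.63), *Mcl1* like *Csnk1e*, *Ptp4a3* and *Peli1* (0.63 to 0.64), and *Bcl2l1* like *Gpr160*, *Hars2* and the BH3-only gene *Bid* (0.57 to 0.61).

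Among the members the A1 copies were closest, at 0.55, followed by *Bcl2a1b* and *Fas* at 0.49. *Bcl2l11* opposed *Bcl2a1b* (-0.66) and *Bcl2a1d* (-0.55). Within single cells of 1 mouse and cluster, the pairs were weakly related. The highest median over mice was 0.12 for the A1 copies in TFR cells and 0.10 in activated cells. The transcripts of these copies share stretches as long as a read, and the part of this in r was not tested.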

How the data were processed

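Cells, libraries and clusters are those of the authors' 3 deposited tables, from 10 mice that each gave 1 RNA and 1 TCR library (10x 5′ chemistry). Per the submitters' processing notes, reads were processed with Cell Ranger 4.0.0 against GRCm38 (mm10) and cells with Seurat 3.1.4. The deposited matrix holds ln(x + 1), a natural log, where x is the UMI count as corrected by sctransform. The authors ran sctransform for each condition on its own, and all nonzero values gave whole corrected counts (relative tolerance 1e-06). With sctransform the authors also regressed out the heat shock score, among other covariates. Whether that regression reached the corrected counts was not tested, so they are not taken to be free of that score. The deposited cell table also gives raw UMI counts per cell, the percent of mitochondrial UMIs and the authors' cell cycle and heat shock score, and the TCR table gives the CDR3 pair of each cell. All 33833 TCR cells list exactly 1 α and 1 β chain. Corrected counts are not raw counts, so no count model was used.

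Values were put on the log2(corrected count + 1) scale, and the mean per mouse was taken where a mouse had at least 20 cells. A gene entered a test if 1% or more of cells held it in as many mice as the smaller condition of the comparison had, or in 5 mice for clone size. The test was limma 3.58.1 under R 4.3.3, with a mean-variance trend, adjusted by Benjamini-Hochberg over all genes tested. Conditions were called at an adjusted p below 0.01 and an absolute log2 difference above 0.2, and clone size at an adjusted p below 0.05, on differences within mice. Single values were tested by exact two-sided permutation over 252 assignments, or 1024 sign patterns, of 10 mice. Expression and TCR libraries with the same mouse number come from the same mouse, while WT and 564Igi chimeras share no numbers. Python 3.11.15, numpy 2.4.6, pandas 2.3.3, scipy 1.17.1 and matplotlib 3.10.9 were used. The limma fits over all cells and for clone size in activated and TFR cells were run on simulated per-mouse values. That check used the adjusted p alone and did not cover the limit on the difference or the permutation tests. Gene positions and transcripts came from GENCODE vM21.

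The members, the gene lists and the tests were chosen with earlier results of these data known. Besides the members, *Bax*, *Bak1*, *Fasl* and *Cflar* were named always, called genes of the list up to 4 by lowest p in each comparison, and the 3 genes most like each member. For *Bcl2l11* 1 of these is not reported here. Alternatives covered limma without trend, no filter, an adjusted p below 0.05 with no limit on the difference, each mouse left out, labelled sex or heat shock score as covariate, libraries 34 and 36 left out, another log scale, a window of UMIs, equal cluster weights, other clone size limits, 1 value per clone and no replicate block. Another 3 were chosen after seeing the data, all for clone size: leaving out mice 34 and 36, the heat shock difference as a covariate, and expanded clones with most of their cells in the cluster.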

Additional observations from a re-analysis of the deposited data

Results flagged for a closer look

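Levels in 42 groups of 5 mice and 21 sets of clone size differences were examined for a single mouse far from the others. Such a mouse was found 6 times. In separate groups of normally spread values, chance alone would pick out about 1 in 20. The groups here share mice and cells, so the 6 cannot be set against that rate. *Fas* in 564Igi mouse 24 was 0.182 over all cells, where the other 4 lay at 0.262 to 0.293, and 0.190 in activated cells, where they lay at 0.26 to 0.28. Its *Fas* difference between expanded and singleton TFR cells was -0.123, the other mice lying at -0.025 to 0.073. This mouse had 1121 cells and the lowest UMI total. *Bcl2l1* in TFR cells of WT mouse 36 was 0.060, where the other 4 WT mice lay at 0.083 to 0.092, and its expanded minus singleton difference in *Sostdc1* cells was 0.080, where the other 6 mice lay at -0.020 to 0.019. *Bcl2a1d* in TFR cells of WT mouse 23 was 0.207, where the others lay at 0.240 to 0.250.

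Both remaining results concern *Mcl1*, whose effects had an unadjusted p below 0.05 in a test of the difference between conditions. Its TFR minus activated difference was 0.025 larger in 564Igi than in WT mice (exact permutation p = 0.0397, 1 of 7 tests), and its expanded minus singleton difference in TFR cells was -0.058 relative to WT (exact permutation p = 0.0159, 1 of 14 tests). Both p-values are unadjusted, neither passed 0.05 when adjusted for its number of tests, and the limma p adjusted over all genes for the first was 0.715.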

How the results depend on the processing

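No member was called between conditions under any alternative in any cluster. Small differences over all cells changed sign: *Bcl2a1b* (0.00071) became -0.0051 without mice 34 and 36, -0.0035 in cells of 2500 to 4500 UMIs and -0.0068 with equal cluster weights. Leaving out each mouse in turn gave -0.022 to 0.018 for *Bcl2a1b*, -0.022 to 0.026 for *Bcl2* and -0.0070 to 0.00082 for *Bcl2l11*. The *Bcl2* clone size difference in activated cells (0.080) was no longer called without trend (0.0799, adjusted p = 0.0605), without the filter (0.0799, adjusted p = 0.0733), with 1 value per clone (0.0350), in the UMI window (0.0700) or with the heat shock covariate (0.0221). It was also lost with no replicate block (0.0799, adjusted p = 0.294), the fit that ignores that both arms come from 1 mouse. Leaving out each mouse in turn gave 0.070 to 0.093 (adjusted p = 0.00094 to 0.0220). Members called there (1) became 0 under these settings apart from the trend, where *Mcl1* was called in its place, 2 with clones of over 10 cells (*Bcl2*, *Mcl1*), and 1 to 2 with a mouse left out, *Bcl2a1d* joining without mouse 24. Genes called there (862) became 471 without the filter, 353 with 1 value per clone, 19 with no replicate block, 227 in the UMI window, 528 without mice 34 and 36, 7 with the heat shock covariate and 593 to 1054 with a mouse left out. In TFR cells the genes called (320) became 203 without trend, 86 without the filter, 181 with clones of over 10 cells, 12 with no replicate block, 86 in the UMI window, 692 with clones mostly TFR and 187 to 355 with a mouse left out. Members called (0) became 2 with 1 value per clone (*Bcl2*, *Bcl2a1d*), 1 with log2 of the mean plus 0.1 (*Bcl2*, 0.20, adjusted p = 0.0439) and 0 to 1 with a mouse left out. Further changes of sign in activated cells were *Bcl2l1* at 0.0027 with clones of 2 or more, 0.0050 with 1 value per clone, 0.00069 with the heat shock covariate and -0.0043 to 0.0012 with a mouse left out, and *Bcl2l11* at 0.0107 and *Mcl1* at 0.0062 in the UMI window. In TFR cells they were *Bcl2l11* at 0.00068 with clones of 2 or more, 0.0024 with over 10, 0.00035 with 1 value per clone and 0.0053 in the UMI window, *Bcl2l1* at 0.0048 in the UMI window, *Fasl* at 0.00095 with 1 value per clone, and *Bcl2* at -0.030 with clones mostly TFR. The causes were not tested. The UMI window could not be fitted for central memory and interferon stimulated cells, and the setting with exactly 1 α and 1 β chain left every cell in.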
